A study of Mus musculus with 12 samples.

Results

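The breakdown of leucine, isoleucine and valine is carried by a chain of mitochondrial enzymes, and 10 genes of that chain were examined by name. They are Bcat2, Bckdha, Bckdhb, Dbt, Ivd, Mccc1, Auh, Mmut, Pcca and Hibadh. A probe set was used where the platform annotation named only 1 of these genes, which gave 10 probe sets for 9 genes, out of 12422 probe sets and 8251 singly named genes on the array. Auh had 2 probe sets, and Pcca was not analysed here. After the dimmest 40% of probe sets were set aside, 9 probe sets for 8 genes remained among the 7454 tested, and Dbt was left untested as too dim.

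The arrays hold RNA of perigonadal fat from female mice aged 6 months and fed ad libitum, 1 mouse per array and 3 mice per group. Adipose-GLUT4-Tg mice carry a transgene that overexpresses Glut4, the insulin-responsive glucose transporter, under the aP2 promoter, and their controls are FVB littermates without it. Adipose-Glut4-/- mice lack Glut4 in fat, and their controls carry the aP2-Cre transgene, and this line mixes C57B6, FVB and SV129. The aP2 promoter, that of Fabp4, is known to be active in adipocytes and also in macrophages, and which exons were removed and which species gave the transgene are not labelled. Whole tissue was used, so fewer cells of a type and less RNA per cell cannot be told apart.

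Each branched-chain amino acid first loses its amino group to a keto acid in a reversible transamination. The branched-chain keto acid dehydrogenase complex then removes carbon dioxide and attaches coenzyme A in the irreversible step that commits the carbon to oxidation. From there leucine runs through its own enzymes to acetyl-CoA and a ketone body, valine and isoleucine run to propionyl-CoA, and all feed the citric acid cycle. White fat is known to oxidise these amino acids and to use their carbon for making lipid.

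Array medians ran from 185.8 (knockout control 3) and 188.1 (overexpressor 1) to 219.4 intensity units. Each line had its own smallest value, 21.9 in the overexpressor line and 22.27 in the knockout line, and no level is compared between lines. On 4 arrays (overexpressor control 3, knockout 1, knockout control 1 and knockout control 2) the log2 values correlated more closely with the opposite group of the line than with their own. Adipocyte markers were bright, Adipoq reading 5196 to 6986 in the overexpressor line and 5948 to 6878 in the knockout line. The Slc2a4 probe set, for the Glut4 gene, read 624.6, 1110 and 1042 in overexpressors and 639.0, 582.7 and 1212 in their controls, then 377.5, 365.4 and 363.4 in knockouts and 416.1, 513.5 and 614.2 in their controls. Knockouts lay below all of their controls and overexpressors overlapped theirs, but the fold changes of 0.22 and -0.43 (log2) did not pass limma's test (adjusted p 0.930 in overexpressors and 1.00 in knockouts).

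The first comparison asked what excess Glut4 did to these transcripts. In fat of the overexpressors, Bcat2 and Mccc1 stood at 45.3% and 48.8% of the control mean and Ivd at 65.7%, with every overexpressor below every control for all 3. Bckdha, Bckdhb and Hibadh stood at 77.4% to 81.3%, Mmut at 89.3% and Auh at 99.7%, with overlapping groups. No member passed limma's test after adjustment over all 7454 probe sets (adjusted p 0.360 to 0.992). By limma 0 of 8 tested genes were called, against 0.0805% of all probe sets, and 3 of 8 had an unadjusted p under 0.05 in the lower direction, against 3.53% of all. Lower transcripts of these enzymes had been reported for this line, perhaps from the same arrays, which is why the direction cannot count as independent evidence.

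Bcat2, the mitochondrial aminotransferase that opens the pathway, read 123.5, 174.4 and 217.9 in overexpressors and 392.0, 340.6 and 405.3 in controls. Even the highest overexpressor lay well below the lowest control. The means were 172 ± 47.3 and 379 ± 34.2 (SD, n = 3 each), with a log2 fold change of -1.02 (SE 0.28, 95% interval -1.63 to -0.41, limma adjusted p = 0.510). This fold change ran from -1.17 to -0.84 when each array in turn was left out.

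For the E1 subunits of the dehydrogenase complex the fold changes were nearer 0 and depended on 1 mouse. Bckdha, the alpha subunit of its decarboxylase component E1, read 280.5, 436.4 and 420.7 in overexpressors and 401.6, 494.7 and 502.7 in controls (log2 fold change -0.29, SE 0.20, adjusted p = 0.913). Bckdhb, the beta subunit of E1, read 456.9, 867.6 and 747.6 in overexpressors and 783.3, 944.7 and 833.1 in controls (-0.33, SE 0.22, adjusted p = 0.913). Both gave their lowest value on overexpressor 1, and overexpressors 2 and 3 overlapped the controls. Without overexpressor 1 the changes were -0.11 for Bckdha and -0.08 for Bckdhb, and without overexpressor 2 that of Bckdhb was -0.51. Dbt, the transacylase that forms the core of the complex, read 47.3, 110.9 and 116.9 in overexpressors and 165.5, 131.5 and 143.9 in controls. All overexpressors were below all controls, and a fit without the filter on dim probe sets gave -0.56 (SE 0.28, limma adjusted p = 0.951).

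The leucine branch was split. Ivd, which dehydrogenates isovaleryl-CoA, read 562.4, 738.0 and 825.0 in overexpressors and 945.0, 1131 and 1160 in controls (log2 fold change -0.59, SE 0.18, 95% interval -0.98 to -0.21, adjusted p = 0.633). Mccc1, the biotin-bearing subunit of the carboxylase that follows, read 178.0, 277.6 and 273.3 in overexpressors and 399.4, 550.3 and 544.9 in controls (-0.94, SE 0.23, 95% interval -1.43 to -0.45, adjusted p = 0.360). Neither gene's groups overlapped. Auh, the next hydratase, which also binds AU-rich RNA, read 441.9, 537.9 and 520.5 in overexpressors and 489.3, 498.9 and 517.4 in controls, and the groups overlapped. Its fold change was -0.01 (95% interval -0.24 to 0.22) with the brighter probe set and -0.02 (95% interval -0.31 to 0.26) with the dimmer one, both with a sign that turned with array medians subtracted (0.05 and 0.03).

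Members of the valine and propionyl-CoA branch lay between these. Hibadh, which oxidises 3-hydroxyisobutyrate from valine, read 526.3, 1075 and 865.9 in overexpressors and 879.2, 1196 and 1114 in controls (log2 fold change -0.40, SE 0.22, adjusted p = 0.913). Mmut, the vitamin B12-dependent methylmalonyl-CoA mutase, read 383.7, 588.9 and 528.7 in overexpressors and 465.7, 567.8 and 647.3 in controls (-0.16, SE 0.16, adjusted p = 0.928). Overexpressor 1 was again the lowest and both genes overlapped. Without it Hibadh stood at -0.12 and Mmut at 0.0060, and without overexpressor 2 they stood at -0.61 and -0.28. Mmut was also at -0.28 without overexpressor control 1 and at -0.06 without overexpressor control 3.

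**Figure D1:**
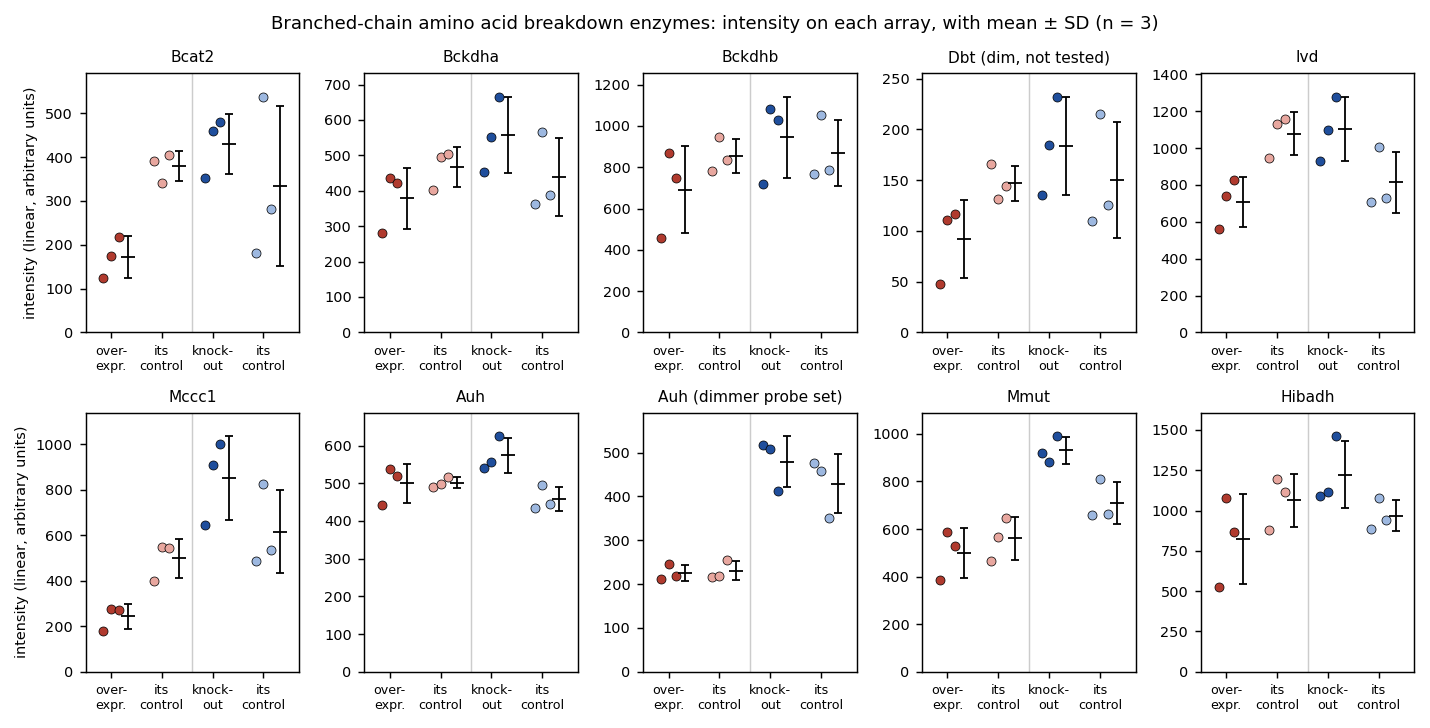
Intensity (linear, arbitrary units) of each member probe set on each of the 12 arrays, as points in replicate order, with the mean and SD (n = 3) as a bar beside them. Bcat2, Dbt, Ivd and Mccc1 have all 3 overexpressors below all 3 of their controls, while the brighter Auh probe set, Mmut and Hibadh have all 3 knockouts above all 3 of theirs.

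Over the 8 tested genes the median log2 fold change was -0.37, against -0.07 over all tested probe sets. All 8 genes had a fold change under 0, as did 70.3% of all tested probe sets. Without overexpressor 1, the dimmest array of the line, the median was -0.11, and without overexpressor 2 it was -0.56. The median log2 difference from the control mean was -0.87 on overexpressor 1, -0.03 on overexpressor 2 and -0.23 on overexpressor 3, and Bcat2, Mccc1 and Ivd alone among the tested genes were below all controls in all 3 mice. Groups of 3 of 8 genes did not overlap in the lower direction, against 6.48% of all probe sets.

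Loss of Glut4 was the subject of the other comparison. In knockout fat the members read higher, with means at 108.9% to 138.1% of the control mean. Mccc1 (138.1%), Ivd (135.3%) and Mmut (131.0%) had the largest ratios and Bckdhb (108.9%) the smallest. Every member's adjusted p was 1.00 by limma, so 0 of 8 genes were called, against 0.121% of all probe sets, all of them higher. An unadjusted p under 0.05 was found for 3 of 8 in the higher direction, against 3.47% of all.

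Bcat2 read 352.6, 458.4 and 480.1 in knockouts and 182.1, 537.5 and 282.0 in aP2-Cre controls. Knockout control 2 gave the highest value of the line and knockout control 1 the lowest, so the controls spanned the knockouts. The log2 fold change of 0.44 (SE 0.28, 95% interval -0.17 to 1.05) was 0.12 without knockout control 1 and 0.81 without knockout control 2.

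For all subunits of the complex, knockout control 2 was again the highest control. Bckdha read 453.0, 553.1 and 665.4 in knockouts and 363.5, 565.5 and 388.7 in controls (log2 fold change 0.33, SE 0.20). Bckdhb read 720.8, 1083 and 1031 in knockouts and 765.2, 1050 and 788.2 in controls (0.11, SE 0.22). Dbt read 135.2, 184.7 and 231.7 in knockouts and 109.4, 215.1 and 125.1 in controls, and all of these groups overlapped. Without knockout control 2 the changes of Bckdha and Bckdhb were 0.51 and 0.25. That of Bckdha was 0.21 without knockout control 1 and 0.20 without knockout 3, and that of Bckdhb ran from 0.0054 without knockout 2 to 0.29 without knockout 1.

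In the leucine branch Ivd read 931.3, 1097 and 1279 in knockouts and 708.2, 1004 and 731.4 in controls (log2 fold change 0.43, SE 0.18, 95% interval 0.04 to 0.81). Mccc1 read 643.9, 907.0 and 1002 in knockouts and 488.9, 825.4 and 534.5 in controls (0.46, SE 0.23, 95% interval -0.03 to 0.94). For both, knockouts 2 and 3 were above every control and knockout 1 was below knockout control 2. The brighter Auh probe set read 539.2, 557.2 and 625.2 in knockouts and 434.8, 495.0 and 445.4 in controls (0.30, SE 0.11, 95% interval 0.07 to 0.53). Its groups did not overlap, whereas the dimmer Auh probe set gave 517.2, 508.7 and 412.3 in knockouts and 476.7, 458.5 and 351.7 in controls, with overlap and a fold change of 0.15 (SE 0.13).

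Hibadh and Mmut separated the knockouts from their controls. Mmut read 921.3, 880.4 and 990.9 in knockouts and 658.2, 812.1 and 662.0 in controls (log2 fold change 0.38, SE 0.16, 95% interval 0.03 to 0.73). Hibadh read 1093, 1112 and 1462 in knockouts and 887.4, 1075 and 942.6 in controls (0.32, SE 0.22), and stood at 0.18 without knockout 3. Together with the brighter Auh probe set, groups of 3 of 8 genes did not overlap in the higher direction, against 5.62% of all probe sets.

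Over the 8 genes the median log2 fold change was 0.35 in the knockouts, against 0.04 over all tested probe sets, and 8 of 8 were over 0, as were 63.0% of all. The median ran from 0.26 to 0.49 when each array was left out. The count of genes with an unadjusted p under 0.05 moved more. It was 0 without knockout control 1 or knockout 3, 1 without knockout control 3 or knockout 2, and 6 without knockout control 2. On knockout control 2 all 8 genes lay above the mean of their group, by a median of 0.29, and on the other 2 controls all 8 lay below it.

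**Figure D2:**
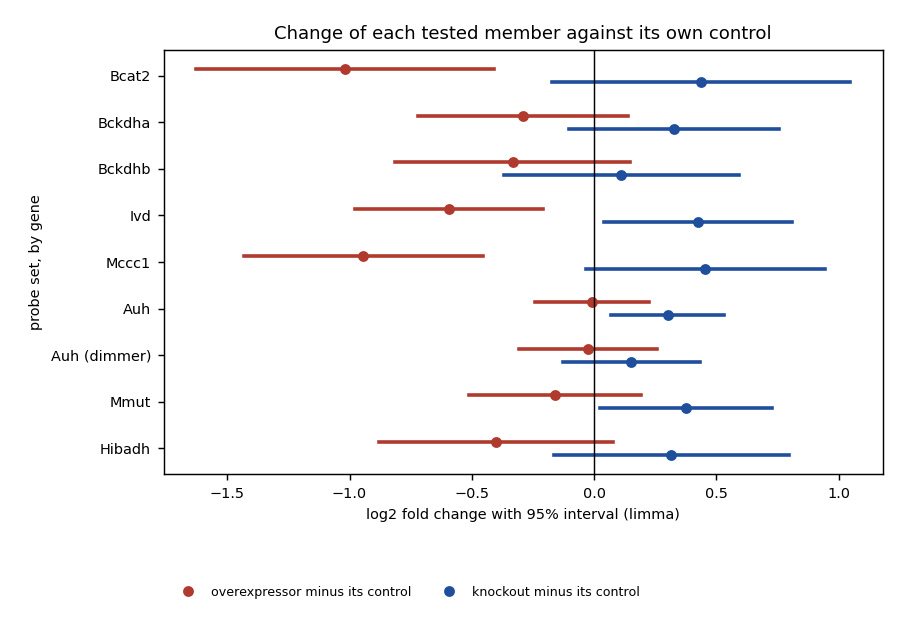
Log2 fold change of each tested member probe set with its 95% interval from limma, for overexpressors (red) and knockouts (blue), each against its own control. The overexpressor intervals of Bcat2, Ivd and Mccc1 lie below 0, the other overexpressor intervals hold 0, and in knockouts those of Ivd, the brighter Auh probe set and Mmut lie above 0.

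Whether the effects in the 2 lines differed was tested directly, as the overexpressor fold change minus the knockout fold change. Both comparisons have their own controls. The lines also differ in strain and in the kind of control, so excess against loss of Glut4 cannot be told apart from these. The difference was -1.46 for Bcat2 (95% interval -2.32 to -0.59, limma adjusted p = 0.493), -1.40 for Mccc1 (-2.09 to -0.71, adjusted p = 0.209) and -1.02 for Ivd (-1.56 to -0.47, adjusted p = 0.341). It was nearest 0 for Auh, at -0.31 with the brighter probe set and -0.18 with the dimmer one. No member passed, by limma 0 of 8, against 0.161% of all probe sets, while 6 of 8 had an unadjusted p under 0.05 in the lower direction, against 4.31% of all. That count was 3 without overexpressor 1, overexpressor control 2 or 3, knockout 3 or knockout control 1 or 3. All 8 genes were under 0 in overexpressors and over 0 in knockouts, which held for 44.6% of all tested probe sets.

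Ivd and Mccc1 are shown here by the 250 bases before their transcription start, with the 2 annotated starts of Bcat2, because their fold changes in overexpressors lay farthest from 0 among the tested members. The sequences are those of RefSeq on GRCm38.p6, written 5′ to 3′ on the coding strand, with capitals for the CCAAT box (CCAAT, or ATTGG on the other strand).
Bcat2, first start, chr7:45569903-45570152 (+ strand): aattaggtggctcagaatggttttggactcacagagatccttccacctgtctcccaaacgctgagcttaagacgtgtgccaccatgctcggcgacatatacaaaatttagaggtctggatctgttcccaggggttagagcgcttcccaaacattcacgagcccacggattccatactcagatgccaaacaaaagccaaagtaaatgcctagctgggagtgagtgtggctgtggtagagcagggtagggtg
Bcat2, second start, chr7:45571029-45571278 (+ strand): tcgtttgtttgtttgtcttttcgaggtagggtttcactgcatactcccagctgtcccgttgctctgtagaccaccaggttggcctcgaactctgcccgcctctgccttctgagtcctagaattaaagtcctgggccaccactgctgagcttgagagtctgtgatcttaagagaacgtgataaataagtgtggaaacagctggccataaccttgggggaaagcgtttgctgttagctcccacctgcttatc
Ivd, chr2:118861744-118861993 (+ strand): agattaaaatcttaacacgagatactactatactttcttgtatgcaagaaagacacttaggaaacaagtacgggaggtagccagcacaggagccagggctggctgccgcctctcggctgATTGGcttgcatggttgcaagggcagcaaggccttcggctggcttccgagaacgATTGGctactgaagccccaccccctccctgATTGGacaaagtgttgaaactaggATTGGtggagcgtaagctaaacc
Mccc1, chr3:36000679-36000928 (- strand): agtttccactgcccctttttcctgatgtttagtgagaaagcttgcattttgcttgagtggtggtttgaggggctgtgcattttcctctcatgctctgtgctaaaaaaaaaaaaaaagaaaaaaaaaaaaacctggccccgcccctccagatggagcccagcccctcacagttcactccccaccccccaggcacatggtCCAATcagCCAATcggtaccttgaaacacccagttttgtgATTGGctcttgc

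Ivd held 4 CCAAT boxes in this window and Mccc1 held 3, while 33.8% of 32851 annotated windows of this length held at least 1 and 2.79% held 3 or more. In Ivd they began 131, 77, 47 and 23 bases before the start, and in Mccc1 52, 44 and 12 bases before it. Neither Bcat2 window held one. Bckdhb held 2 in 1 of its windows, and Hibadh and both windows of Pcca held 1 each. In all, 6 of 11 member windows held a CCAAT box, where a gene with 2 starts was counted once per start. These include both windows of Pcca, which has no expression value here. The E-box (CACGTG) and the GC box (GGGCGG) were searched on both strands as well, and none of these motifs lies within another. Of the 11 windows of 8 members, 0 held an E-box, against 6.02% of all windows, and 5 held a GC box, against 32.7% of all. A match describes these letters only and does not show a factor bound there.

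The array median of overexpressor 1 stood at -0.15 (log2) from those of its controls. Each member was also read against 15 other enzymes of the mitochondrial matrix on the same array, a choice made after the values were seen. These enzymes, among them citrate synthase (Cs) and the isocitrate dehydrogenases, had a median log2 fold change of -0.14 in overexpressors and 0.22 in knockouts, with 0 called by limma in either comparison and 0 at an unadjusted p under 0.05. For the difference between the effects, Idh2 had an unadjusted p under 0.05 (-0.75). Their median stood at -0.56 from the control mean on overexpressor 1. Relative to them, Mccc1 stood at -0.75, -0.89 and -0.75 (log2) in overexpressors, with controls at -0.21, 0.20 and 0.02. Bcat2 stood at -0.82, -1.12 and -0.68 in overexpressors, with controls at 0.12, -0.08 and -0.02, and Ivd at -0.33, -0.66 and -0.34 against -0.11, 0.13 and -0.01. On this scale the 3 overexpressors stayed below all controls for each of these genes. The share of all probe sets whose groups separate on this scale was not computed for either line, so these separations have no background to be read against. Mmut stood at 0.06, -0.06 and -0.04 in overexpressors, with controls at -0.17, 0.08 and 0.09, and overlapped. In the knockout line the same ratio gave mean differences of 0.21 for Bcat2 and 0.23 for Mccc1, with overlap. Mmut stood at 0.27, 0.14 and 0.09 in knockouts, with controls at 0.02, -0.01 and 0.03, and its groups did not overlap. Those of Ivd (mean difference 0.20) were separated narrowly, with knockout 1 and knockout control 2 both at 0.11. For the other members the groups overlapped in both lines, apart from Dbt in overexpressors (-0.42, all below). Some signs turned on this scale: Auh stood at 0.13 and 0.12 in overexpressors with its brighter and dimmer probe sets, and in knockouts Bckdhb stood at -0.11 and the dimmer Auh probe set at -0.07. Such a ratio shows unequal change within an array and not that any gene was unchanged.

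**Figure D3:**
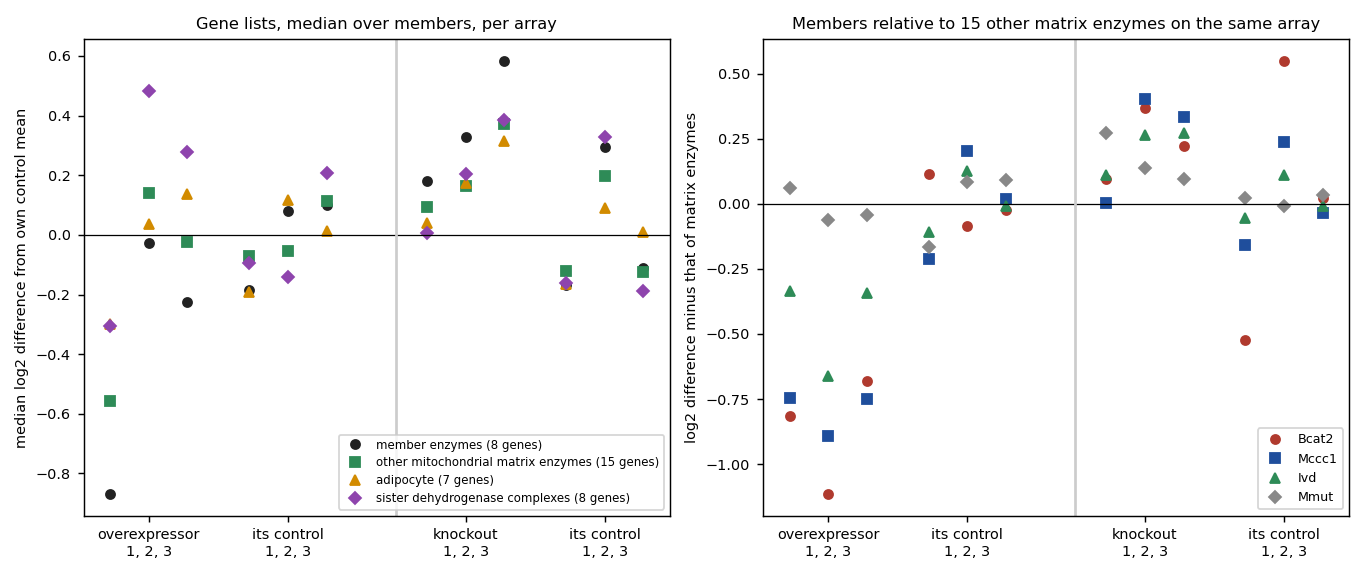
Left, median log2 difference from the control mean of the line over the genes of each list, 1 point per array, with members at -0.87, -0.03 and -0.23 in overexpressors. Right, log2 difference of Bcat2, Mccc1, Ivd and Mmut minus that of the 15 matrix enzymes on the same array, with the first 3 below all controls in each overexpressor and Mmut near 0.

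Other enzymes of the pathway, and some that act on its products, were read from a fixed list of 24. Of that list 12 were tested and Ehhadh was too dim. In overexpressors 11 of 12 had a fold change under 0 (median -0.19), against 70.3% of all tested probe sets. By limma 0 were called, and 2 had an unadjusted p under 0.05, against 3.53% of all in the lower direction. These 2, Oxct1 and Hmgcs1, act on products of the pathway. Oxct1, which activates acetoacetate, the ketone body that leucine yields, read 247.0, 340.2 and 353.3 in overexpressors and 660.0, 767.6 and 674.8 in controls (log2 fold change -1.09, SE 0.18, adjusted p = 0.0568). In knockouts it read 785.4, 896.4 and 1301, against 729.5, 764.5 and 624.9 in controls (0.45, SE 0.18, adjusted p = 1.00). Neither line's groups overlapped. The difference between its effects was -1.53 (95% interval -2.08 to -0.98) and passed the test (limma adjusted p = 0.0339), a call that ended without any 1 of 11 of the 12 arrays, knockout 1 being the exception (adjusted p 0.0657 to 0.128). Hmgcs1, the cytosolic synthase that uses acetoacetyl-CoA for cholesterol, read 420.5, 746.3 and 669.5 in overexpressors and 988.1, 949.2 and 1336 in controls (-0.82, SE 0.25, adjusted p = 0.673).

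In knockouts 11 of 12 of these enzymes were over 0 (median 0.28), against 63.0% of all tested probe sets. By limma 0 were called, and 1 (Oxct1) had an unadjusted p under 0.05. Of the 15 other matrix enzymes, 14 were under 0 in overexpressors and 15 over 0 in knockouts. Pccb, the partner of Pcca in propionyl-CoA carboxylase, stood at -0.39 in overexpressors and 0.40 in knockouts, and Mcee, which turns its product for Mmut, at -0.24 and 0.29. Both, with the thiolase Acaa2 (-0.33 and 0.28), had an unadjusted p under 0.05 for the difference between the effects, and the 3 are named after their values were seen. Bcat1, the cytosolic aminotransferase, stood at -0.04 in overexpressors (95% interval -0.30 to 0.21) and -0.08 in knockouts (-0.33 to 0.17), whereas Bcat2 was at -1.02 and 0.44.

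No control point of the pathway that was tested passed the test. Bckdk, the kinase that switches the dehydrogenase complex off, read 456.0, 621.8 and 607.8 in overexpressors and 573.8, 583.8 and 586.6 in controls (log2 fold change -0.06, 95% interval -0.34 to 0.22). In knockouts its fold change was 0.13 (95% interval -0.15 to 0.41). Slc25a44, the mitochondrial carrier of branched-chain amino acids, stood at 0.15 in overexpressors and -0.06 in knockouts, with overlapping groups. Ppm1k, the phosphatase that opposes Bckdk, was not analysed here. Of 5 tested regulators and transporters, by limma 0 were called and 0 had an unadjusted p under 0.05 in either comparison. Slc7a8 among them passed the filter only through the overexpressor line, with means of 66.3 in knockouts and 53.5 in their controls. Slc3a2, the heavy chain that amino acid transporters share, read 626.0, 886.8 and 808.8 in overexpressors and 1080, 896.7 and 901.3 in controls, without overlap (-0.31). Its difference between the effects was -0.56, at an unadjusted p under 0.05 but not past the adjusted test (limma adjusted p = 0.893).

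Relatives of the complex lay on both sides of 0 in overexpressors. Dld, the E3 subunit that the branched-chain, pyruvate and oxoglutarate dehydrogenases share, read 937.1, 1690 and 1525 in overexpressors and 1306, 1355 and 1580 in controls (log2 fold change -0.07, 95% interval -0.50 to 0.37). Of 8 tested genes of the pyruvate and oxoglutarate complexes and their kinases, 5 were over 0 in overexpressors and 7 in knockouts (medians 0.22 and 0.17). By limma 0 were called and 0 had an unadjusted p under 0.05 in either comparison. The same held for the 2 tested genes of biotin handling, on which Mccc1 and Pcca depend (medians -0.03 in overexpressors and 0.23 in knockouts).

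**Figure D4:**
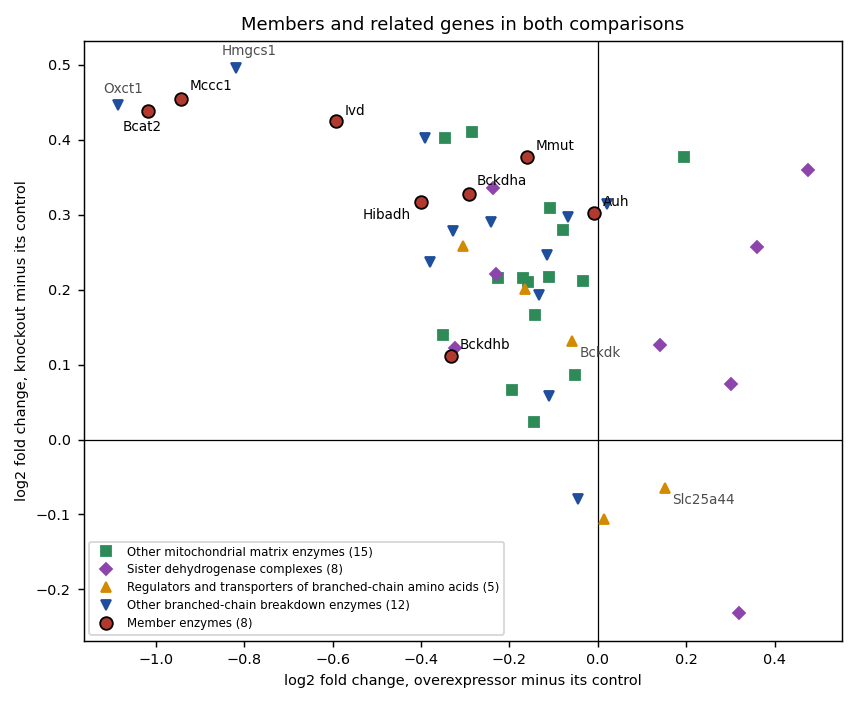
Log2 fold change in overexpressors (horizontal) against that in knockouts (vertical), each against its own controls, for the 8 tested members and the tested genes of 4 related lists. All members lie at or left of 0 and above 0, with Bcat2, Mccc1, Oxct1 and Hmgcs1 farthest to the left, while 5 genes of the sister dehydrogenase complexes lie to the right.

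Genes whose pattern over the 12 arrays was most like that of 3 members were found by the root mean square (RMS) difference of log2 values centred on each line, over 5699 other tested genes. Nearest to Bcat2 were Apoc1, an apolipoprotein (RMS 0.18), Nr1h3, the oxysterol receptor LXR alpha (0.24), and Cdkn2c, a cyclin-dependent kinase inhibitor (0.25), where the median gene was at 0.50. Its nearest member was Mccc1 (0.20). Nearest to Ivd were Gstz1, of tyrosine breakdown (0.09), C1qtnf12, which encodes the secreted protein adipolin (0.10), and Nr1h3 (0.10). Nearest to Mccc1 were Nr1h3 (0.16) and the lipid droplet genes G0s2 (0.17) and Cidec (0.17). The median gene was at 0.32 from Ivd and at 0.44 from Mccc1. Nr1h3 stood at -0.63 in overexpressors and 0.42 in knockouts, and none of these genes passed the test in either comparison.

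Markers of the tissue's cell types were read beside the members. Of all tested probe sets, 70.3% were under 0 in overexpressors and 63.0% over 0 in knockouts. How often a short list has all its genes on that side was not computed. Of 7 tested adipocyte markers, 4 were under 0 in overexpressors (median -0.05) and 7 of 7 over 0 in knockouts (median 0.09). Their summed intensity ran from 19533 to 25045 in overexpressors and 21359 to 25561 in controls, and from 22943 to 25975 in knockouts and 22077 to 23492 in controls. Cidec, a lipid droplet gene among them, stood at -0.77 in overexpressors, with all overexpressors below all controls (adjusted p = 0.307). Fibroblast and matrix markers were under 0 in 8 of 8 in overexpressors (median -0.49), with sums of 17783 to 22131 in overexpressors and 20978 to 30632 in controls. Of these, 6 of 8 had an unadjusted p under 0.05, a larger share than the 3 of 8 members. So did 3 of 5 smooth muscle markers and 1 endothelial marker. In knockouts 7 of 8 fibroblast and matrix markers were under 0 (median -0.14) and 0 had an unadjusted p under 0.05. Macrophage markers were under 0 in 7 of 7 (median -0.27), with sums of 4069 to 4496 in overexpressors and 3573 to 7782 in controls, and in knockouts their median was 0.04. Smooth muscle (5 of 5), endothelial (5 of 5), mesothelial (4 of 4), epithelial (3 of 3) and B cell markers (3 of 3) were under 0 in overexpressors too, with medians of -0.53, -0.29, -0.30, -0.11 and -0.19, and in knockouts their medians were -0.38, 0.07, -0.13, -0.18 and -0.11. Of the 3 tested B cell markers Ighm, the immunoglobulin M heavy chain, rose in knockouts (log2 fold change 1.40, limma adjusted p = 0.0160). The other 2 were under 0 there, Cd79b at -0.11 and Ms4a1 at -0.16. Over all tested probe sets 0.121% were called in knockouts. The part of all these markers in the members' values was not tested.

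Brown adipocyte and skeletal muscle markers, cells rich in mitochondria, varied between single arrays. The median log2 difference of brown markers from the control mean was -1.11 on overexpressor 1, -1.03 on knockout control 1 and 0.68 on knockout control 2. The first 2 of these arrays gave the lowest Bcat2 value of their line, and knockout control 2 the highest of its line. Other arrays ran the other way. Knockout 1 had the highest brown marker median of its line (0.79) and the lowest Bcat2 of the knockouts, overexpressor control 1 stood at -0.62 with Bcat2 at 392.0, and overexpressor 2 at 0.14 with Bcat2 at 174.4. Ucp1, the defining marker, read 111.5, 509.2 and 366.6 in overexpressors and 240.8, 657.3 and 1226 in controls, then 1452, 711.4 and 1159 in knockouts and 50.4, 1232 and 807.9 in controls. Of 4 tested brown markers 3 were under 0 in overexpressors and 3 over 0 in knockouts (medians -0.29 and 0.62). The brown marker sums were 627.8 to 2010 and 933.7 to 2939, then 2311 to 3435 and 717.4 to 3159, in the same group order. Cox7a1, counted among these, passed the filter (mean 156.7) only through the knockout line. Its means were 46.8 in overexpressors and 67.1 in their controls, and it enters the brown marker medians of those arrays too. Skeletal muscle markers were under 0 in 5 of 6 in overexpressors and over 0 in 5 of 6 in knockouts, with sums of 1116 to 3653 and 1601 to 2925, then 1464 to 6950 and 1525 to 3521. Knockout 3 stood apart, with a muscle marker median of 1.71, and it also had the highest member median (0.58). The muscle myosin gene Myh1 read 1199 on this array, against 95.3 and 29.6 on the other knockouts. Acta1, Tnnt3 and Mylpf were highest on it too. Ckm (69.65) and Myh4 (332.6) went the other way and were lowest on it among the knockouts. The part of the brown and muscle markers was not tested.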

How the data were processed

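RNA of perigonadal fat from 12 mice was measured on 12 Affymetrix arrays; per the labels' protocols it was extracted with a Qiagen RNeasy kit and labelled with biotin. The deposited values are intensities on a linear scale, 1 per probe set and array, and how they were summarised and scaled is not stated in those protocols. Titles set the groups, because the genotype label is the same for a line's mutants and controls. Nothing in the labels ties same-numbered mice, and their deviations from group means correlated at -0.35 to 0.02, so no pairing was used.

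To each value 36.92 (the table's 10th percentile) was added before log2 was taken, which understates changes of dim probe sets. The 4968 probe sets with the lowest mean were left out. A model with 1 mean per group used all 12 arrays in limma 3.58.1 (R 4.3.3), with eBayes moderation along intensity (residual degrees of freedom 8, prior 4.27). Benjamini-Hochberg adjustment ran over 7454 probe sets, with calls at 0.05. The procedure was tested on simulated data. The overexpressor and knockout comparisons share no array, but they share 1 estimate of the spread per probe set, so their p-values are not independent. The number of arrays limits the precision.

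Gene names came from the platform annotation, in which 10833 probe sets have a single symbol, 396 have several and 1193 have none. Of the first, 10817 matched a RefSeq gene. The brightest probe set stood for a gene in medians. Members, lists and tests were chosen with earlier results of these data known. Named genes were all members, pathway list genes with an unadjusted p under 0.05 in either comparison, Bckdk, Ppm1k, Dld, Slc25a44 and Slc2a4, and the 3 genes nearest to each of 3 members. Outside this rule, Bcat1, Pccb, Mcee, Acaa2, Slc3a2, Slc7a8, Idh2 and the single marker genes were chosen after their values were seen. Promoter windows came from RefSeq (GRCm38.p6), for 8 of the 10 members. Alternatives changed the constant, filter, normalization, variance trend, block or arrays; leaving out the 2 dimmest arrays, the member counts at an unadjusted p and the settings for Oxct1 were chosen after seeing the data. Figures were drawn with matplotlib 3.10.9.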

Additional observations from a re-analysis of the deposited data

Results flagged for a closer look

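Oxct1, the enzyme that activates acetoacetate, had effects that differed between the lines by a direct test. The overexpressor fold change minus the knockout fold change was -1.53 (log2, limma adjusted p = 0.0339), with 3 of 3 overexpressors below and 3 of 3 knockouts above all of their controls. The call was lost in 14 alternatives and kept in 7, and most of the losses came when arrays were left out. Among the alternatives that kept all arrays, it missed the threshold when no probe set was filtered (limma adjusted p = 0.143) and with the replicate number as a block (0.270). No member enzyme passed that test.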

How the results depend on the processing

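No tested member passed the threshold in any comparison under any of the alternatives run, and 12 alternative values of single genes changed sign. Besides the matrix enzyme scale, on which Bckdhb and the dimmer Auh probe set also turned in knockouts (-0.11 and -0.07), the sign changes were all in overexpressors: the brighter and dimmer Auh probe sets with array medians subtracted (0.049 and 0.034), with quantile normalization within each line (0.074 and 0.028) and without the 2 dimmest arrays (0.072 and 0.013), an alternative chosen after seeing the data, in which Mmut was at 0.0060. Oxct1 lost its call for the difference in 14 alternatives and gained one in overexpressors in 6. Leaving out 1 array gave -0.060 to 0.072 and -0.078 to 0.042 for the brighter and dimmer Auh probe sets and -0.28 to 0.0060 for Mmut. The members' median kept its sign throughout, from -0.56 to -0.11 in overexpressors and 0.26 to 0.49 in knockouts with 1 array left out, and was -0.11 and 0.32 without the 2 dimmest arrays. Genes with an unadjusted p under 0.05 numbered 3 to 5 in overexpressors, 0 to 6 in knockouts and 3 to 7 for the difference with 1 array left out; without the 2 dimmest arrays they numbered 1 in knockouts and 3 for the difference, and with quantile normalization 3 for the difference. Over all probe sets, 6 were called in overexpressors, 9 in knockouts and 12 for the difference. The overexpressor count was 11 with array medians subtracted, 11 with quantile normalization, 1 on the line's 6 arrays and 3 to 21 with 1 array left out (3 without overexpressor control 2, 21 without overexpressor control 3). The knockout count was 6 to 11 with 1 array left out. The difference count was 1 without a filter on dim probe sets, 1 without the 2 dimmest arrays and 1 to 13 with 1 array left out. The same-numbered arrays share only a number; with it as a block the knockout count was 0 and the difference count 1. The cause of these shifts was not tested. Dbt, too dim to be tested, limits what can be said of the complex.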
